A study of Mus musculus with 2 samples.

Results

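The miR-135 family of the mouse is made from 3 loci, Mir135b, Mir135a-1 and Mir135a-2, and its level was measured here in the newborn forebrain. The 3 loci were found by their Ensembl identifiers among the 1973 miRNA rows of each table of counts, and were selected on their counts in these 2 libraries, for the gap between Mir135b and the miR-135a copies, so that gap is described below without a test. MicroRNAs had been sequenced from total RNA of the forebrain of B6NCrl mice at postnatal day 0, with 1 library from the single forebrain of pup 3 (replicate 2) and 1 from that of pup 1 (replicate 1). Both pups belong to a single group with no treatment or genotype contrast, and the sex was not collected. Reads on the gene strand of a miRNA locus numbered 2427066 in pup 3 and 2742746 in pup 1, and levels are given as counts scaled to a total of 1000000 of these reads (CPM). Of the loci used to check the tissue, the neuronal Mir137, Mir128-1 and Mir128-2 had 4084 to 25786 CPM in the mean of both pups and the neural Mir9-3 had 536 CPM, but the neuronal Mir124a-1, Mir124a-2 and Mir124a-3 had 0.959 to 7.06 CPM and Mir9-2 had 1.87 CPM. The last 4 lay below the liver miRNA Mir122, at 55.6 ± 10.5 CPM (mean ± SD, n = 2 pups here and throughout), while the muscle miRNA Mir206 had 5.91 ± 1.95 CPM, and 3 further muscle loci (Mir1a-1, Mir133a-1 and Mir133a-2) had 0 counts. The miR-9, miR-124, miR-128, miR-1 and miR-133a loci are numbered copies, whose reads can map to several places and are then counted at no locus. Copies thus stand among both the high and the low loci of this check, with 11051 CPM at Mir128-1 and 4084 CPM at Mir128-2. Whether multiple mapping lowered the copies with few or no counts was not tested, so the levels of the copies do not settle the check.

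MicroRNAs are cut from hairpin precursors, and 1 of the 2 arms of the hairpin, or both, is loaded into Argonaute and pairs with messenger RNAs through bases 2 to 8 of the miRNA, the seed. In mice, miR-135a lowers the serotonin transporter (Slc6a4) and the serotonin receptor 1A (Htr1a) and has been tied to the response to stress and antidepressants. In mouse neurons the family also acts on Klf4, an inhibitor of axon growth, and in rodent neurons on the complexins Cplx1 and Cplx2, which act in synaptic vesicle release. The copy Mir135a-2 has been studied in the mouse midbrain, where it acts against Wnt signalling and on the transcription factor Lmx1b.

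The hairpins are shown to give the letters that the copies share and those in which Mir135b differs from them. All 3 loci had a hairpin entry in RefSeq (GRCm38.p6). Capitals mark miR-135a-5p, the mature miRNA of the 5′ arm of both copies, and in Mir135b the stretch that aligns with it.
Mir135b: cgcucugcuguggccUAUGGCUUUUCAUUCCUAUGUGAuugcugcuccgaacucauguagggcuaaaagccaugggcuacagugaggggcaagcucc
Mir135a-1: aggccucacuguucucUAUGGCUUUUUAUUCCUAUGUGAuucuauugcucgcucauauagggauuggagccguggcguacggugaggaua
Mir135a-2: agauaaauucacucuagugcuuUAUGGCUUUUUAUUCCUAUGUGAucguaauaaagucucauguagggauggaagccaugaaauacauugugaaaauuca

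The marked stretch is identical in Mir135a-1 and Mir135a-2 over all 23 bases. In Mir135b 22 of the 23 bases match, and the difference is U11C, counted from 1 at the 5′ end of miR-135a-5p with the base of miR-135a-5p first. The substitution lies outside the seed, so the stretch of Mir135b holds the same bases 2 to 8 as miR-135a-5p. The longest run of letters shared by the hairpins of Mir135a-1 and Mir135a-2 is 24 bases, while Mir135b shares 14 bases with Mir135a-1 and 13 with Mir135a-2.

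The mature arms with an entry are printed with the seed in capitals, to show that the 5′ arm is common to the copies and that the 3′ arms are not.
miR-135a-5p: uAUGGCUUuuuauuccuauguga
miR-135b-3p: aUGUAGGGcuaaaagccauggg
miR-135a-1-3p: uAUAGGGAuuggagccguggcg
miR-135a-2-3p: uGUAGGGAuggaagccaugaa
The 3′ arms have 3 different seeds, and no other mature miRNA among the 1738 mature entries of the table holds any of them. Among these entries the seed AUGGCUU of miR-135a-5p is found at 2 loci, Mir135a-1 and Mir135a-2. The entries hold no 5′ arm of Mir135b, so Mir135b is missing here although its aligned stretch holds the same seed. Predicted folding energies at the default settings of RNAfold were −48.7 kcal/mol for Mir135b, −43.5 for Mir135a-1 and −34.5 for Mir135a-2.

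These letters bear on where a read can be counted. The deposited tables assign a read to a locus only if it maps to a single place, and pool all others in 1 row. Of the 18-base windows along each hairpin, 7 of 73 in Mir135a-1 and 7 of 83 in Mir135a-2 also occur in another hairpin of the table, all of them between bases 17 and 40 of Mir135a-1 and between bases 23 and 46 of Mir135a-2. This is the stretch of miR-135a-5p and the base after it. None of the 80 windows of Mir135b occurs in another hairpin. The windows were compared by exact letters with the other hairpins only, not with the whole genome. Which mismatches were allowed when the reads were mapped is not known. The tables give 1 value per locus and do not say from which arm a read came, so the counts of the copies leave out reads of miR-135a-5p that fit both copies.

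**Figure D1:**
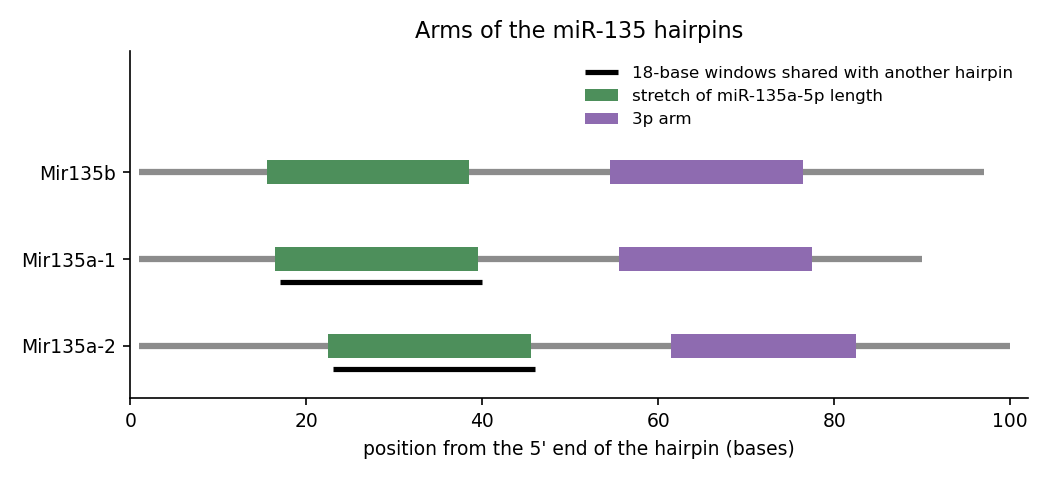
Positions of the arms along the 3 hairpins, in bases from the 5′ end. Green boxes are the stretch of miR-135a-5p or its aligned counterpart, purple boxes the 3p arms, and the black line the region whose 18-base windows also occur in another hairpin, which spans bases 17 to 40 of Mir135a-1 and 23 to 46 of Mir135a-2 and is absent from Mir135b.

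A seed of this kind pairs with the letters AAGCCAT in a messenger RNA, and these letters were searched on the transcript strand of the longest annotated 3′ untranslated region of each gene (GENCODE M21). They occur in 13.0% of the 21020 genes with such a region, and followed by an A in 2.98%. Matches in genes known as targets are shown in capitals, as letters with which the seed could pair. Whether they are bound was not tested, and no messenger RNA was measured in these libraries.
Htr1a (GRCm38 chr13:105447387-105447416, plus strand): ccctgccacatgAAGCCATtgtttttattt
Klf4 (GRCm38 chr4:55527619-55527648, minus strand): taaaaaaaaaaaAAGCCATtattgtgtcgg
Cplx1, the first of 2 matches (GRCm38 chr5:108520002-108520031, minus strand): ccccgcaaaaatAAGCCATagtcctagatc
Cplx2, the second of 3 matches (GRCm38 chr13:54381895-54381924, plus strand): ttccaatagttaAAGCCATatcagttagac
The letters are not in the window used for Slc6a4 (663 bases) or Lmx1b (3671 bases). Only the matches of Cplx1 (both) and Cplx2 (1 of 3) among these genes are followed by an A.

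Mir135b (ENSMUSG00000065435.1, chromosome 1, 132198088 to 132198184, plus strand, GRCm38) lies in an intron of each of the protein-coding genes Lemd1 and AC124108.1, on their strand. It had 16653 counts in pup 3 and 23212 counts in pup 1. This is 6861 CPM in pup 3 (6758 to 6966, the exact Clopper-Pearson bounds at 95%) and 8463 CPM in pup 1 (8355 to 8572), with a mean of 7662 ± 1133 CPM or 0.766% ± 0.113 of the gene-strand counts. By mean level it stood at rank 22 of the 1973 rows, at rank 25 in pup 3 and at rank 23 in pup 1.

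Mir135a-1 (ENSMUSG00000065407.1, chromosome 9, 106154124 to 106154213, plus strand) lies in an intron of the noncoding gene D030055H07Rik on its own strand, and opposite an exon of Glyctk, which encodes glycerate kinase. It had 257 counts or 106 CPM in pup 3 (interval 93.3 to 120 CPM) and 498 counts or 182 CPM in pup 1 (166 to 198 CPM). Its mean was 144 ± 53.5 CPM, at rank 187. Although Glyctk runs on the other strand there, the column of the opposite strand held 0 counts at this locus in both pups, as it did at Mir135b and Mir135a-2, so the strand setting did not touch the counts of the family.

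Mir135a-2 (ENSMUSG00000065524.1, chromosome 10, 92072086 to 92072185, minus strand) lies in an intron of Rmst, a long noncoding RNA tied to neurogenesis in human cells. It had 139 counts or 57.3 CPM in pup 3 (interval 48.1 to 67.6 CPM) and 332 counts or 121 CPM in pup 1 (108 to 134.8 CPM). Its mean was 89.2 ± 45.1 CPM, at rank 211. All 3 loci were thus detected, that is, they had at least 10 counts in both pups, as had 331 loci (16.8% of the rows), whose median was 232 CPM. Mir135b lay above that median and both copies lay below it. These intervals hold counting error within a library alone. No molecular identifiers are named and amplified duplicates of 1 molecule were not told apart, so the intervals may be too narrow even for that error.

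**Figure D2:**
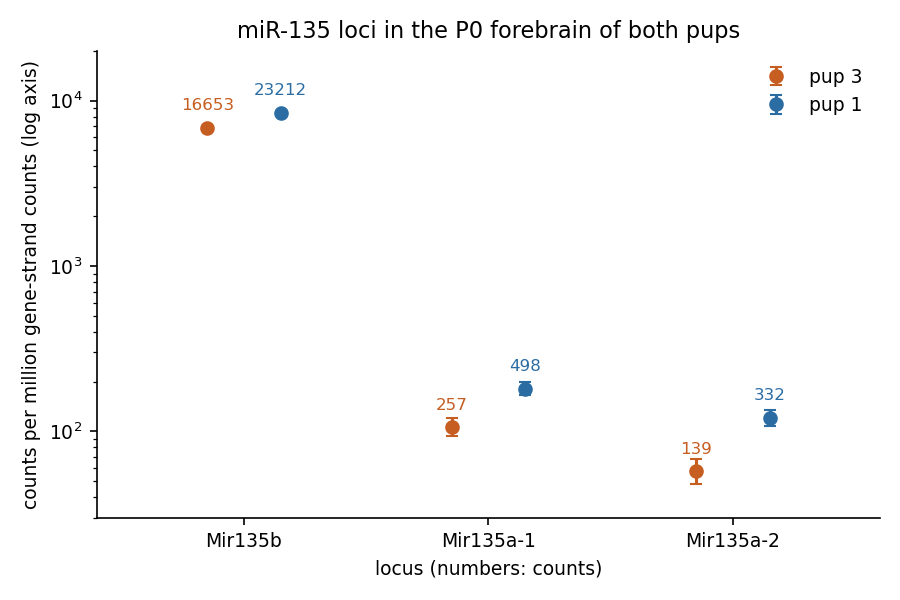
Level of each locus in pup 3 (left, orange) and pup 1 (right, blue) as CPM on a log axis; bars are 95% exact Clopper-Pearson intervals and the numbers are counts. Mir135b lies at 6861 and 8463 CPM, and the copies lie between 57.3 and 182 CPM.

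The order of the levels was Mir135b, Mir135a-1, Mir135a-2 in each pup, on the scale of CPM. Between Mir135b and either copy the values of the pups did not overlap, and the members were chosen for this gap. Between the copies the values of the pups overlapped: Mir135a-1 had 106 CPM in pup 3, which is below the 121 CPM of Mir135a-2 in pup 1. Within each pup Mir135a-1 was the higher copy, with 1.85 times the counts of Mir135a-2 in pup 3 and 1.5 times in pup 1. It made up 64.9% of the counts of both copies in pup 3 (95% exact interval 59.97 to 69.6%) and 60.0% in pup 1 (56.6 to 63.4%).

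Mir135b had 42.1 times the summed counts of both copies in pup 3 and 27.97 times in pup 1, a mean ratio of 35.01 ± 9.96. The ratio per base of hairpin, with lengths of 97 bases for Mir135b, 90 for Mir135a-1 and 100 for Mir135a-2, was 33.7 ± 9.48. These ratios chose the members and are given as a description. The rows of multiple mapping held 2596301 reads in pup 3 and 2810170 in pup 1, more than the reads assigned to all loci together. The gap in counts between Mir135b and the copies, 16257 in pup 3 and 22382 in pup 1, equals 0.626% of those reads in pup 3 and 0.796% in pup 1. How many of them are miR-135a-5p is not recorded, so the ratio is one of assigned reads and gives no order of the mature miRNAs miR-135b and miR-135a in the tissue.

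A single locus far above its numbered copies was also found in the miR-26 family and in that of miR-103 and miR-107, but not in the miR-125 family, which was added after its values were seen. Mir26b had 152 times the summed counts of Mir26a-1 and Mir26a-2 in pup 3 and 195 times in pup 1. Mir107 had 50.8 times the summed counts of Mir103-1 and Mir103-2 in pup 3 and 54.5 times in pup 1. Mir125a had 1.15 times the summed counts of Mir125b-1 and Mir125b-2 in pup 3 and 1.32 times in pup 1. The hairpins of the miR-125 loci were not compared. As in the miR-135 family, the copies of the other two share a long run with each other, 25 bases for the Mir26a pair and 27 bases for the Mir103 pair. Mir26b shares at most 11 bases with the Mir26a copies and Mir135b at most 14 with the miR-135a copies. Mir107 shares 24 bases with both Mir103 copies, but none of its listed mature arms is identical to that of another locus. Of the windows of the Mir107 hairpin, 13 of 70 at 18 bases and 1 of 64 at 24 bases also occur in another hairpin. Within the pairs of copies, the higher copy had 1.67 ± 0.247 times the counts of the lower in the miR-135 family, 1.42 ± 0.192 times in the miR-125 family, 3.54 ± 0.604 times in the miR-26 family and 9.89 ± 1.26 times in that of miR-103 and miR-107. No test was made of these ratios.

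**Figure D3:**
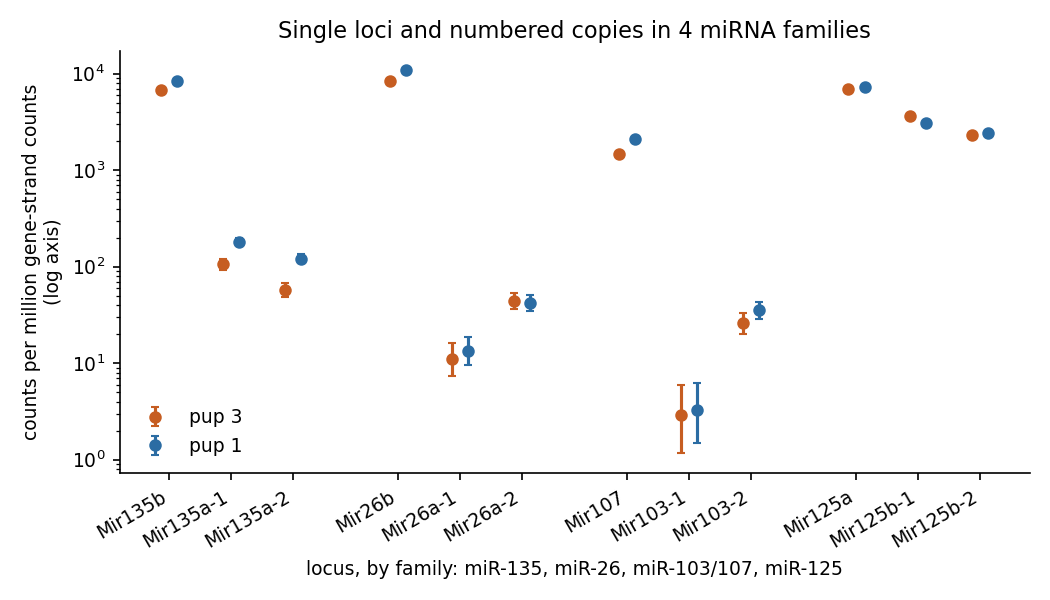
CPM on a log axis of the single locus and the numbered copies of the miR-135, miR-26 and miR-125 families and the family of miR-103 and miR-107 in pup 3 (left, orange) and pup 1 (right, blue); bars are 95% exact intervals of counting error. The single locus lies 27.97 to 195 times above the sum of its copies in 3 families, and 1.15 to 1.32 times above it in the miR-125 family.

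The members were also set beside all loci grouped by shared arms. Of the 869 rows with a hairpin in the RefSeq table, 52 had 1 mature arm identical to that of another locus and another arm that was not, as Mir135a-1 and Mir135a-2 do. Of these, 34 (65.4%) were detected, with a median of 265 CPM, above both miR-135a copies. Of 775 loci with no shared arm, the class of Mir135b, 247 (31.9%) were detected with a median of 241 CPM, and 18 lay above Mir135b. Of 31 loci whose every listed arm is shared, 6 (19.4%) were detected. The table is not complete, so more arms may be shared than were found, and Mir135b was classed by its 3′ arm alone.

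All 3 loci were lower in pup 3 than in pup 1 relative to library totals, Mir135b by little and the copies by more. Mir135b was lower by 18.9%, a log2 ratio of −0.30 (log2 of CPM + 1, pup 3 over pup 1, here and below). For Mir135a-1 the log2 ratio was −0.77, and for Mir135a-2 it was −1.07. By a two-sided Fisher's exact test of each locus against the rest of its library, Benjamini-Hochberg adjusted over 400 loci with at least 10 summed counts, all 3 passed at 0.05, with adjusted p of 2.32e-95 for Mir135b, 3.03e-12 for Mir135a-1 and 5.19e-14 for Mir135a-2. The test has a single pup on each side, so it compares these libraries and not conditions, and in bulk tissue fewer cells that make a miRNA and less of it per cell cannot be told apart. Of all tested loci 46.2% were called lower in pup 3 and 10.2% higher, so being called lower is common among loci of these libraries.

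The median log2 ratio of the tested loci was −0.31, and Mir135b lay 0.012 above it. Relative to this median Mir135a-1 stood at −0.46 and Mir135a-2 at −0.75. Of the 400 tested loci, 207 had a lower ratio than Mir135b, 55 a lower one than Mir135a-1 and 14 a lower one than Mir135a-2. Of the 275 tested loci with at least 100 summed counts, these numbers were 145, 26 and 5. With other scalings the copies passed again and Mir135b did not always do so. With TMM-adjusted library sizes and an exact binomial test, the log2 ratios were −0.052 for Mir135b (adjusted p = 0.00106), −0.52 for Mir135a-1 (4.85e-06) and −0.82 for Mir135a-2 (1.90e-08), where 26% of all tested loci were called lower. With DESeq2 size factors they were 0.011 for Mir135b (adjusted exact binomial p = 0.625), −0.46 for Mir135a-1 (8.12e-05) and −0.76 for Mir135a-2 (2.61e-07), where 20.8% were called lower. In either direction 56.5% of the tested loci were called with library totals, 46.5% with TMM and 45.2% with DESeq2 size factors. Of the loci called, 18.1% were higher in pup 3 with library totals, 44.1% with TMM and 54.1% with DESeq2 size factors.

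The makeup of the family, which needs no scaling, was compared between the libraries by the share of its counts at each copy. The copies made up 2.32% of the 17049 family counts in pup 3 (95% exact interval 2.10 to 2.56%) and 3.45% of the 24042 in pup 1 (3.23 to 3.69%). Mir135a-1 made up 1.51% in pup 3 (1.33 to 1.70%) and 2.07% in pup 1 (1.90 to 2.26%). Mir135a-2 made up 0.815% in pup 3 (0.686 to 0.962%) and 1.38% in pup 1 (1.24 to 1.54%). The intervals of the pups do not overlap for either copy, but they hold counting error alone and no spread between animals. Tests of counting error called 56.5% of all tested loci between the pups with library totals, 46.5% with TMM and 45.2% with DESeq2 size factors. Mir135b holds most of the family counts, so these shares largely restate the ratios of the copies to Mir135b.

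**Figure D4:**
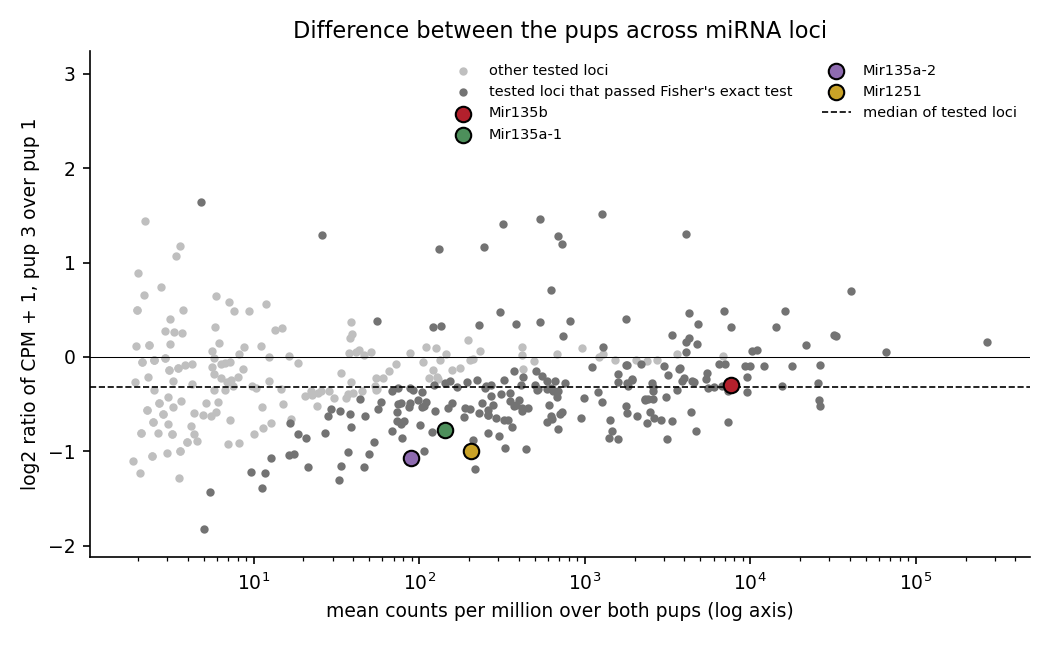
Log2 ratio of CPM + 1 in pup 3 over pup 1 against mean CPM (log axis) for the 400 tested loci; dark points passed Fisher's exact test, and the dashed line is the median of −0.31. Mir135b lies on the median, and Mir135a-1, Mir135a-2 and Mir1251 lie below it at −0.77, −1.07 and −0.99.

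The nearest miRNA locus to Mir135a-2 with a row, Mir1251, lies 64954 bases away in an intron of the same host, Rmst, on the same strand. Mir1251 had 334 counts or 138 CPM in pup 3 and 754 counts or 275 CPM in pup 1, a mean of 206 ± 97.1 CPM. Its log2 ratio was −0.99 (adjusted Fisher's exact p = 7.30e-27), against −1.07 for Mir135a-2, and with DESeq2 size factors −0.68 (adjusted exact binomial p = 7.54e-13), against −0.76. Both miRNAs of Rmst were thus called lower in pup 3 with library totals, TMM and DESeq2 size factors. Of all tested loci 46.2%, 26% and 20.8% were called lower on these scales. Among the 400 tested loci 25 had a lower ratio than Mir1251 with library totals, and 9 among the 275 with at least 100 summed counts. No listed mature arm of Mir1251 is shared with another locus. The RNA of Rmst was not measured in these libraries, and its part in the result was not tested.

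Mir135a-1 lies 24.6 kb from Mirlet7g, a member of the let-7 family that rises as neural tissue matures, on the same strand but in another host, Wdr82. Mirlet7g had 67554 CPM in pup 3 and 64993 CPM in pup 1, a mean of 66273 ± 1811 CPM. Its log2 ratio was 0.056, against −0.77 for Mir135a-1, so these neighbours differed in level and in direction. The nearest rows to Mir135b were 699 kb and 1528 kb away, and neither was detected: Gm24273 had 0 counts in both pups, and Mir6903 had 1 count in pup 3 and 7 counts in pup 1.

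The loci whose levels lay closest to those of the family over the 2 libraries were found by Euclidean distance of log2(CPM + 1). For Mir135b they were Mir369 at a distance of 0.10, Mir125a at 0.23 and Mir30a at 0.26. Mir369 had 6421 CPM in pup 3 and 8230 CPM in pup 1. For Mir135a-1 they were Mir33 (0.19), Mir666 (0.29) and Mir32 (0.31), and for Mir135a-2 they were Mir1247 (0.25), Mir34b (0.30) and Mir218-2 (0.32). With 2 libraries this measures a like level and a like ratio, and says nothing more of the loci.

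Mir135b lay below 2 of the listed loci of neuronal and neural progenitor miRNAs that had a row, and above the others. Many of the listed loci are numbered copies, which can lose reads that map to several places, so this order is one of assigned reads. Mir135b was also selected on its counts. Of 23 listed loci 22 had a row (not Mir9-1), 18 were detected, and the median was 574 CPM. Mir137 and Mir128-1, both enriched in neurons, lay above Mir135b, with 25786 ± 3504 and 11051 ± 405 CPM, and Mir128-2 followed with 4084 ± 319 CPM. Of 20 tested loci of this list, 11 fell and 4 rose in pup 3 against pup 1 by the test with library totals, with a median log2 ratio of −0.40, beside 46.2% of all tested loci called lower, 10.2% called higher and a median of −0.31. With DESeq2 size factors 7 were higher and 7 lower, with a median of −0.11, beside 24.5% of all tested loci called higher, 20.8% called lower and a median of −0.018.

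Most of the miR-15/16 loci, of which miR-16 also acts on the serotonin transporter in mice, were called higher in pup 3, where the miR-135 loci were called lower with library totals. Mir16-1 had 4549 CPM in pup 3 and 3962 CPM in pup 1, with a log2 ratio of 0.20 (adjusted Fisher's exact p = 6.87e-24). Mir16-2 had 795 CPM in pup 3 and 684 CPM in pup 1, with a ratio of 0.22, and Mir15a had 8063 CPM in pup 3 and 5762 CPM in pup 1, with a ratio of 0.48. Mir15b, at 1512 CPM in pup 3 and 1550 CPM in pup 1, did not pass (ratio −0.036, adjusted p = 0.365). Relative to library totals 3 of the 4 were thus called higher, where 10.2% of all tested loci were. All 4 were called higher with TMM, where 20.5% of all tested loci were, and with DESeq2 size factors, where 24.5% were. Mir15a and Mir16-1 lie side by side on 1 strand of chromosome 14, and Mir15b and Mir16-2 on 1 strand of chromosome 3. The 4 loci may therefore not be independent of each other. This list was chosen with earlier results known, and Mir16-1 and Mir16-2 are numbered copies.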

How the data were processed

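For each library the authors deposited a table of raw counts of reads by miRNA gene, without normalization, on assembly mm10 with annotation release M4, per the text deposited with the files. No source used here names the aligner or the counting tool. Each table has 3 columns of counts, read from their values as both strands, gene strand and opposite strand, and the gene strand was used. The 4 rows that name no gene, 58.7% of the reads of pup 3 and 58.8% of those of pup 1, were left out of library sizes. They include reads mapped to several places (44.1% of all reads in pup 3 and 42.2% in pup 1).

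Names, positions and hosts came from GENCODE M21, and hairpin and mature sequences from RefSeq (GRCm38.p6), paired with rows by overlap. The members and lists were chosen with earlier results of these data known. Named loci are the members, their neighbours, the 3 loci nearest in level to each, the families of miR-26 and of miR-103 and miR-107, the leading loci of the neural list, and the tissue check. The miR-15/16 loci are a list of their own. The miR-125 family and Mir99a were named after their values were seen. Letters AAGCCAT, hairpin comparisons and family makeup were added after values were seen. A single group gives edgeR no contrast to test, so libraries were compared by Fisher's exact test, or by an exact binomial test with scaled sizes. Both were run on simulated counts with counting error alone. Those counts hold no spread between animals, so they do not show how the tests behave with it. P-values measure the sampling of reads in 2 libraries. The 2 pups share a donor entry in the labels and were taken as separate animals. TMM factors came from edgeR 4.0.16 and size factors from DESeq2 1.42.0 (R 4.3.3), the tests from scipy 1.17.1 under Python 3.11.15, and fold energies from ViennaRNA 2.7.2. Alternatives were the unstranded column, other totals, scalings, filters and pseudocounts, and leaving out a library.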

Additional observations from a re-analysis of the deposited data

How the results depend on the processing

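The call of Mir135b as lower in pup 3 rests on the scale: with DESeq2 size factors its log2 ratio was 0.011. Mir135a-1 and Mir135a-2 were lower and passed with the unstranded column, TMM, DESeq2 size factors, no filter, at least 50 summed counts, a pseudocount of 0.5 and without Mir99a, the most abundant locus. Levels moved with the denominator. Scaled to all reads of a library instead of those at loci, Mir135b had 3159, Mir135a-1 59.2 and Mir135a-2 36.7, and without Mir99a Mir135b had 10469 CPM. Leaving out a library gave 6861 to 8463 CPM for Mir135b, 106 to 182 for Mir135a-1, 57.3 to 121 for Mir135a-2, and 27.97 to 42.1 for the ratio of Mir135b to the copies. Without pup 1, the 57.3 CPM of Mir135a-2 stood furthest from its mean of 89.2 CPM. Between 181 and 235 loci were called under all settings, with 226 as reported. A shared run of 20 bases in the hairpin was found at 55 detected loci, a wider definition by construction than identical arms, which 40 detected loci had, 34 with 1 shared arm beside an unshared one and 6 with every listed arm shared. No paired analysis was possible because there is a single group.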
